A study of Mus musculus with 15 samples.

Results

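Matrix metalloproteinases (MMPs) are zinc-dependent enzymes that cut the proteins of the extracellular matrix, and 10 of their genes are described here across untreated and cytokine-treated mouse fibroblasts. The genes were taken by name, as the MMPs listed for this family, and each was read on the probes that carry its RefSeq transcript. *Mmp2*, *Mmp3*, *Mmp8*, *Mmp10*, *Mmp11*, *Mmp13*, *Mmp14* and *Mmp23* had 1 probe each, and *Mmp9* and *Mmp19* had 2, which gave 12 of 56605 probes and 10 of 23462 named genes. RNA came from Balb/c Mouse Embryonic Fibroblasts (MEFs, 3T3 clone A31), an established line that is 1 clone, and was hybridized to 15 one-color microarrays. The 5 groups held 3 arrays each: untreated controls (arrays 1, 6 and 11) and MEFs treated by TNFα at 10 ng/ml (4, 9 and 14), TGFß1 at 5 ng/ml (2, 7 and 12), IL-1β at 1 ng/ml (5, 10 and 15) or IL-6 at 20 ng/ml with its soluble receptor sIL-6Rα at 25 ng/ml (3, 8 and 13). An array is called by its group and the number that opens its label. The study's description of its arrays gives 24 h for TNFα and TGFß1, while the labels give 24 or 72 h for the cultures and do not say which holds for the IL-1β and IL-6 arrays. Replicates were separate experiments per the methods, but the labels do not say which arrays share one.

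MMPs are made as inactive proenzymes. Most are secreted and opened by other proteases, such as plasmin or another MMP, while *Mmp11*, *Mmp14* and *Mmp23* are cut by furin-type proteases inside the cell. In connective tissue their activity is held down by the tissue inhibitors of metalloproteinases (TIMPs), and fibroblasts are known to switch collagenase and stromelysin genes on at the level of transcription when inflammatory cytokines act through AP-1. The arrays measured transcripts only, so neither the amount nor the activity of the enzymes is given here.

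Levels are log2 signals relative to the 75th percentile of the same array, so a level of 0 lies at that percentile, and a difference of 1 is a doubling. Levels of different probes are not on 1 scale and are not compared between genes. Differences come from a limma fit of all 15 arrays, with the q-value adjusted over 29334 tested probes, and a call needed both a q-value under 0.05 and a 1.5-fold change in either direction. All 12 probes passed the filter, which kept a probe if the 3 arrays of any group all read it well above background. *Mmp8* passed only through its 3 TNFα arrays. All 11 fibroblast markers were well above background on all 15 arrays. Of 7 macrophage markers, *Ptprc*, *Adgre1* and *Lyz2* were so on 0 arrays, *Mrc1* on 7 and *Cd68*, *Itgam* and *Csf1r* on 15. Of 6 epithelial markers, *Cdh1* and *Krt5* were so on 0, *Epcam* on 1, *Krt14* on 3, *Krt8* on 4 and *Krt18* on 10, and of 4 endothelial markers *Cdh5*, *Kdr* and *Tek* were so on 0 and *Pecam1* on 15. In bulk RNA, fewer cells of a type and less RNA per cell cannot be told apart. The arrays lay on 2 slides, with at least 1 array of each group on either slide. Values with the slide in the fit are given where they changed a call of a member. Below, values within each slide are given for *Mmp3* only. They also differed in other members, such as *Mmp2* with TGFß1 (0.37 within slide 1, -1.19 within slide 2) and *Mmp10* with TGFß1 (1.91 and 0.56). The label numbers count through the 5 groups in the same order 3 times, and a fit that takes each such run as a block, together with the slide, is called the blocked fit.

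The collagenase genes and the stromelysin genes *Mmp3* and *Mmp10* lie in a cluster on chromosome 9, while stromelysin-3, *Mmp11*, lies on chromosome 10. The stretch just before the start sites is shown because *Mmp13*, *Mmp10* and *Mmp3*, which rose strongly with TNFα, come from this cluster. RefSeq entries of the assembly GRCm38.p6 held a promoter for 7 of the 10 members, and *Mmp2*, *Mmp9* and *Mmp19* had none. The 250 bases before the start follow for *Mmp13* (chr9:7272264-7272513, plus strand), *Mmp3* (chr9:7445572-7445821, plus strand), *Mmp10* (chr9:7502092-7502341, plus strand) and *Mmp8* (chr9:7558179-7558428, plus strand), 5′ to 3′. *Mmp8*, the remaining member of the cluster, had dim signals and is not taken as unresponsive to TNFα. Capitals mark matches to the AP-1 site TGANTCA and to the TATA box TATAAA.
Mmp13: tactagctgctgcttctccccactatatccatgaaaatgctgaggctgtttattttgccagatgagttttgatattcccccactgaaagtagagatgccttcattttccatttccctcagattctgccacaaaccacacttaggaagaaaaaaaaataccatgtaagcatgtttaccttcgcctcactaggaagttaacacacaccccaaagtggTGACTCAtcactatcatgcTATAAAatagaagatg
Mmp3: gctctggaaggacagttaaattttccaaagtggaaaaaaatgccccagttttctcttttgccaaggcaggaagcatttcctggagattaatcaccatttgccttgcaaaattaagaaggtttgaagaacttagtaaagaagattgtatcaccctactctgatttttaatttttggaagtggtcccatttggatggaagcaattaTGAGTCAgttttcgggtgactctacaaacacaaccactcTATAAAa
Mmp10: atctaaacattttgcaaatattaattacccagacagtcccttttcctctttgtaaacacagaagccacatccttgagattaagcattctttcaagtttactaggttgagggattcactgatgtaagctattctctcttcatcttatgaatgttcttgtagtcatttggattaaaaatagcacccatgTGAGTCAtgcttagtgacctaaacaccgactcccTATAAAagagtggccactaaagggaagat
Mmp8: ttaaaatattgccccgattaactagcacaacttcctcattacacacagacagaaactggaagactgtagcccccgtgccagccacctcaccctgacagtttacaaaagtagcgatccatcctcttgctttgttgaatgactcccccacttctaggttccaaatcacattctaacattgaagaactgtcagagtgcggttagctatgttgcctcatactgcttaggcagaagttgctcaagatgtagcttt

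The AP-1 site lay 35 to 29 bases before the start in *Mmp13*, 46 to 40 in *Mmp3* and 63 to 57 in *Mmp10*, each with a TATA box between it and the start. Neither motif was found in the windows of *Mmp8*, *Mmp11*, *Mmp14* or *Mmp23*. Among all 32851 promoter windows of this length, searched on both strands, 6.75% held the AP-1 site and 12.4% the TATA box, and 0.791% held an AP-1 site together with a TATA box on the strand of the gene. The ETS site PEA3 (AGGAAG, in 29.5% of all windows) was found in *Mmp13*, *Mmp3*, *Mmp8* and *Mmp14*, and the C/EBP site (TTGCNNAA, 9.56%) in *Mmp3*, *Mmp10* and *Mmp8*. The Smad site (CAGAC, 42.2%) was found in *Mmp10*, *Mmp8*, *Mmp11* and *Mmp23*, and the STAT site (TTCNNNGAA, 7.02%) in 1 of the 2 windows of *Mmp23*. No window of a member held the NF-kB consensus (3.9%) or the TGF-beta inhibitory element (4.15%). No match overlapped a match of another motif in these windows. A match describes the letters only, and binding was not measured.

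Treatment by TNFα raised 4 secreted members: the collagenase *Mmp13*, the stromelysins *Mmp10* and *Mmp3*, and the gelatinase *Mmp9*. They rose 14.9- to 57.4-fold compared to controls. *Mmp19* and *Mmp23* fell, and 4 members were not called. This makes 4 of 10 members called higher, where 4.12% of all tested probes were, and 2 of 10 called lower, where 6.06% were. All 3 TNFα arrays lay above all 3 controls in 5 members, *Mmp8* included, as in 13.2% of all tested probes, and below them in 4, as in 16.4%. The median log2 fold-change was 0.50 over the 10 members and 0.04 over all tested probes.

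**Figure D1:**
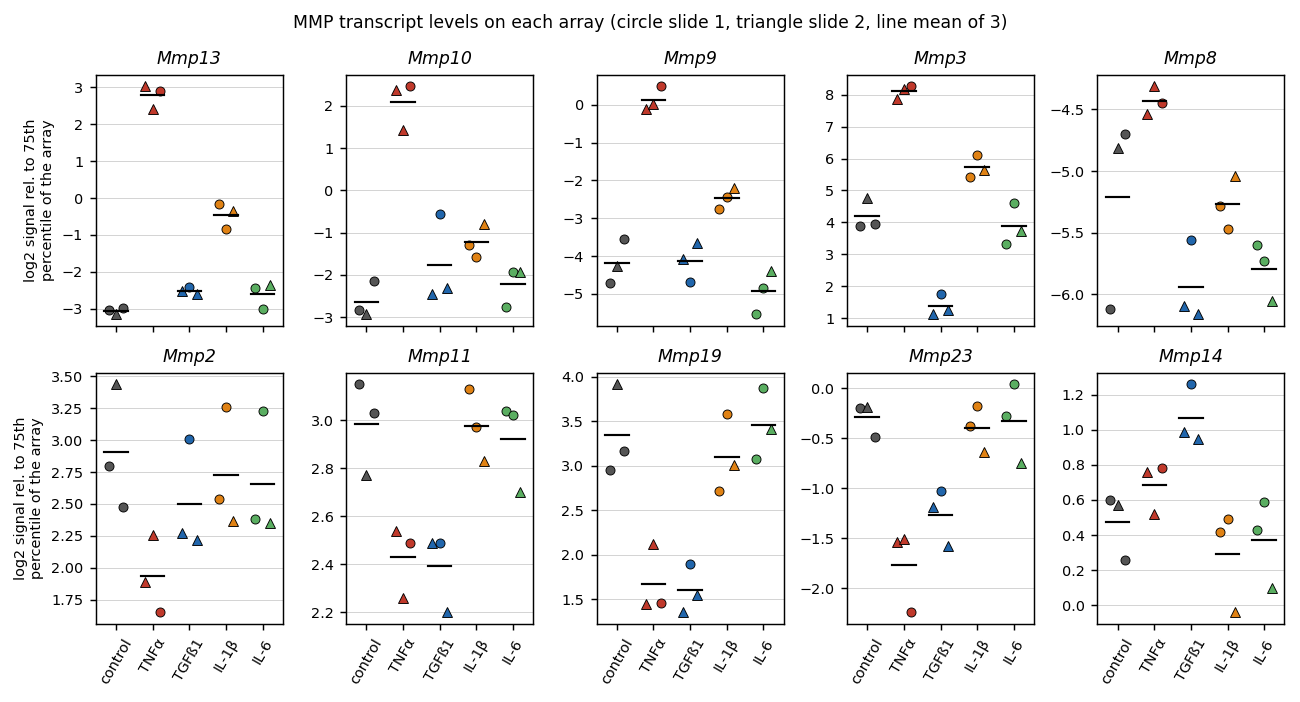
Levels of the 10 MMP genes on each of the 15 arrays, as log2 signal relative to the 75th percentile of the array, with 1 panel per gene and its own vertical axis. Circles are arrays of slide 1, triangles arrays of slide 2 and lines the means of 3 arrays. *Mmp13*, *Mmp10*, *Mmp9* and *Mmp3* were highest on the TNFα arrays, with IL-1β next by group mean. For *Mmp10*, TGFß1 7 (-0.57) lay above every IL-1β array. *Mmp3* alone of these was lowest on the TGFß1 arrays.

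*Mmp13* encodes collagenase-3, the main enzyme of rodents for cutting fibrillar collagen. Its level was -3.04, -3.15 and -2.98 on control arrays 1, 6 and 11, and 3.04, 2.41 and 2.91 on TNFα arrays 4, 9 and 14. The difference was 5.84 ± 0.22 on the log2 scale (SE, n = 3 against 3), a 57.4-fold rise (limma, q = 1.77e-08). The groups lay far apart, and each was tight.

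*Mmp10* encodes stromelysin-2, which cuts proteoglycans and activates procollagenases. Its level was -2.83, -2.93 and -2.14 in controls and 2.37, 1.42 and 2.47 with TNFα, a difference of 4.72 ± 0.47 or 26.4-fold (q = 4.88e-05). TNFα 9 was the lowest of its group and still stood well above every control. *Mmp9* encodes gelatinase B, which degrades denatured collagen and basement membrane collagen. Its level was -4.71, -4.27 and -3.56 in controls and -0.12, 0.01 and 0.50 with TNFα, a difference of 4.31 ± 0.36 or 19.8-fold (q = 1.19e-05). The further probe of *Mmp9* gave 4.57 ± 0.39 (q = 1.47e-05), so both probes moved alike.

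*Mmp3* encodes stromelysin-1, which opens other proMMPs and cuts fibronectin and proteoglycans. Its level was 3.90, 4.77 and 3.96 in controls and 7.87, 8.16 and 8.27 with TNFα, a difference of 3.89 ± 0.33 or 14.9-fold (q = 1.3e-05). Control 6, on slide 2, stood above the other controls. TGFß1 7, IL-1β 10 and IL-6 8, of the same run of label numbers but on slide 1, were also the highest of their groups. TNFα 9, of that run and on slide 2, was not. Within slide 1 the difference was 4.34 and within slide 2 it was 3.25, between arrays of partly different runs.

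The sizes of these rises depended on how background was handled. With a normexp background correction in place of the scanner software's own, the log2 difference was 4.98 for *Mmp13*, 4.09 for *Mmp10*, 2.92 for *Mmp9* and 3.91 for *Mmp3*, all 4 still called. All 4 calls held without any 1 of the 15 arrays.

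Neutrophils are known sources of *Mmp8* and *Mmp9*, and macrophages of *Mmp9*. Of 7 neutrophil markers, *S100a9* and *Ltf* were well above background on 0 arrays, *S100a8* and *Elane* on 15, *Camp* on 12, *Ly6g* on 3 and *Mpo* on 1. Their summed linear signal relative to the 75th percentile was 0.364 to 1.18 in controls, 0.485 to 0.875 with TNFα, 0.274 to 0.431 with TGFß1, 0.705 to 1.5 with IL-1β and 0.37 to 0.636 with IL-6. Of 7 macrophage markers, 3 or 4 were above background on each array, and their sum was 6.67 to 14.6 in controls, 7.89 to 15.2 with TNFα, 7.63 to 13.5 with TGFß1, 7.28 to 15.7 with IL-1β and 7.1 to 15.3 with IL-6. The marker sums of the TNFα arrays overlapped those of the controls in both lists, but the macrophage sum was carried mostly by *Itgam*. *Itgam* stood at 3.63 to 3.86 on the slide 2 arrays and at 2.54 to 2.73 on the slide 1 arrays, whatever the group. *Elane* also differed by slide, with -2.06 to -1.63 on slide 2 and -3.16 to -2.56 on slide 1. The range of the macrophage sum within a group thus followed the slides, so the overlap was no test of macrophage content.

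The macrophage marker *Mrc1*, a mannose receptor, did move with TNFα. Its level was -5.11, -6.07 and -5.90 in controls, where 1 of the 3 arrays was well above background, and -2.06, -2.29 and -1.98 with TNFα, a difference of 3.58 ± 0.43 (q = 1.7e-04) that ranged down to 1.51 in other fits and was called in all that tested it. It was not well above background on any TGFß1 or IL-6 array. Its part in the *Mmp9* values was not tested. TNFα also lowered 4 of 11 fibroblast markers, with q-values of 0.00661 to 0.031. They were *Col3a1* (-2.17 ± 0.44), *Col1a1* (-0.79 ± 0.21), *Col1a2* (-0.66 ± 0.18) and *Thy1* (-0.59 ± 0.16). It raised 1 fibroblast marker, *Dcn* (1.91 ± 0.42, q = 0.0102). The *Thy1* call held in 3 of 8 alternative fits. The part of these markers in the MMP values was not tested either.

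The falls with TNFα were in *Mmp19* and *Mmp23*. *Mmp19* encodes a secreted MMP that acts on basement membrane proteins, and its level was 2.95, 3.92 and 3.17 in controls and 1.44, 2.12 and 1.46 with TNFα. It fell by 1.67 ± 0.31 on the log2 scale (3.18-fold, q = 0.00396), and its further probe fell by 1.84 ± 0.35 (q = 0.00434). *Mmp23* encodes a membrane-anchored MMP, and its level was -0.20, -0.19 and -0.49 in controls and -1.54, -1.51 and -2.24 with TNFα, a 2.77-fold fall (log2 difference -1.47 ± 0.24, q = 0.00184). The 3 TNFα arrays lay below all 3 controls for both genes.

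The other 4 members were not called with TNFα. *Mmp2*, which encodes gelatinase A, had 2.80, 3.44 and 2.48 in controls and 1.89, 2.26 and 1.65 with TNFα (-0.97 ± 0.34, q = 0.0818). Its groups did not overlap, and in the blocked fit the same difference had q = 7.52e-05 and was called. *Mmp11*, stromelysin-3, differed by -0.55 ± 0.15 (q = 0.026), which passed the q-value but not the fold-change. *Mmp8*, the neutrophil collagenase, differed by 0.78 ± 0.31 (q = 0.13), with control 1 at -6.12 and the other 2 controls at -4.81 and -4.70. *Mmp14*, the membrane-bound MT1-MMP that activates pro-*Mmp2* at the cell surface, differed by 0.21 (95% interval -0.17 to 0.58, q = 0.498).

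TGFß1 called no member higher and 4 lower. *Mmp3* fell 7.09-fold and *Mmp19* fell 3.36-fold, while *Mmp23* and *Mmp11* fell less. Of all tested probes, 7.17% were called higher and 10.8% lower. The TGFß1 arrays lay above the controls without overlap in 2 members, as in 19.2% of all tested probes, and below them in 4, as in 19.9%, and the median log2 fold-change was -0.50 over the members and 0.05 over all tested probes. At an unadjusted p below 0.05, 2 members were higher, *Mmp14* and *Mmp13*, and 5 lower, the 4 called ones and *Mmp8*. The share of all tested probes at that level was not computed, so this count only describes the members. Of 11 fibroblast markers, TGFß1 lowered 3, *Pdgfra* (-2.00 ± 0.23, q = 1.05e-04), *Dcn* (-1.82 ± 0.42, q = 0.0079) and *S100a4* (-0.75 ± 0.20, q = 0.0165). It raised 1, *Pdgfrb* (0.66 ± 0.14, q = 0.00503), and the other fibroblast markers were not called. Of 3 neutrophil markers tested, *S100a8* fell by 1.94 ± 0.52 (q = 0.0176), a call lost without control 6, TGFß1 7 or TGFß1 12. *Camp* (-1.07) and *Elane* (0.40) were not called. The epithelial keratin *Krt8*, tested only because its 3 TGFß1 arrays were well above background, was at least 3.32-fold higher than in controls in this fit (q = 0.0176). Its log2 difference was as small as 0.63 in other fits, though called in all that tested it. The part of these markers in the MMP values was not tested.

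The *Mmp3* level was 1.13, 1.77 and 1.25 on TGFß1 arrays 2, 7 and 12, below every control, and the difference was -2.83 ± 0.33 (q = 9.78e-05). It was -2.16 within slide 1 and -3.58 within slide 2, where the arrays compared came from different runs. *Mmp19* had 1.35, 1.90 and 1.54 with TGFß1 (-1.75 ± 0.31, q = 0.0017), and its further probe gave -1.61 ± 0.35 (q = 0.00546). For these genes the TGFß1 arrays and the controls lay apart with no overlap.

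*Mmp23* had -1.19, -1.03 and -1.58 with TGFß1, a 1.96-fold fall (-0.97 ± 0.24, q = 0.0119) that was not called without TGFß1 12, where the difference was -0.82. *Mmp11* had 3.15, 2.77 and 3.03 in controls and 2.49, 2.49 and 2.20 with TGFß1, a 1.51-fold fall (-0.59 ± 0.15, q = 0.0117) that stood just past the fold-change required. With the slide in the fit it was -0.52 (q = 0.00415), short of a call, and it was also not called without control 1, control 11 or TGFß1 12. The groups of *Mmp11* did not overlap.

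*Mmp14* was the member closest to a rise with TGFß1. It had 0.60, 0.57 and 0.26 in controls and 0.99, 1.26 and 0.95 with TGFß1, all above every control, but the difference of 0.58 ± 0.17 (q = 0.0276) fell just short of the fold-change required. With the slide in the fit it was 0.67 (q = 0.00443) and was called. *Mmp13* differed by 0.54 ± 0.22 (q = 0.0874) and also did not overlap with controls.

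*Mmp10* differed by 0.86 ± 0.47 (q = 0.21) with TGFß1, where array 7 stood at -0.57 and arrays 2 and 12 at -2.44 and -2.31. *Mmp2* (-0.40, q = 0.421) and *Mmp9* (0.04, q = 0.949) were not called either. *Mmp8* was well above background on no TGFß1 array and on 2 of 3 controls. Its groups overlapped, with control 1 at -6.12 and the TGFß1 arrays at -6.09, -5.56 and -6.16. It was not called (q = 0.113), and no size of a fall is given.

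**Figure D2:**
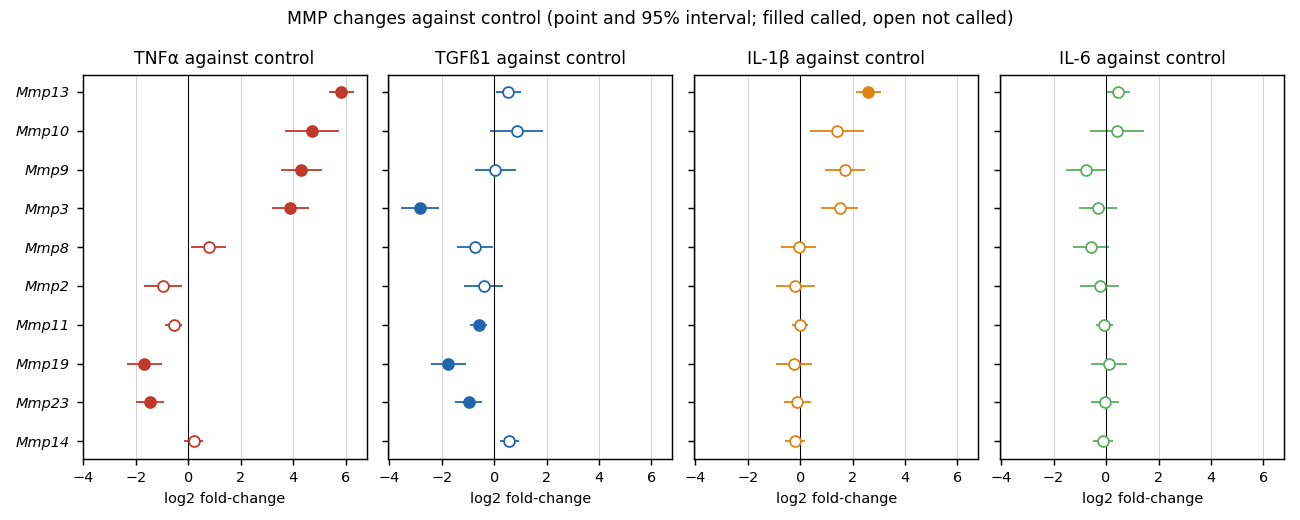
Log2 fold-change of each MMP gene against control for TNFα, TGFß1, IL-1β and IL-6. Points are estimates, bars 95% intervals of the limma fit, filled points called and open points not called. TNFα and IL-1β share the 4 uppermost genes as their largest estimates, *Mmp3* has the largest fall with TGFß1, and no point is filled for IL-6. *Mmp8* was not above background on any TGFß1 or IL-6 array, so its values there rest on dim signals.

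IL-1β raised *Mmp13*, 6.06-fold, and called no further member. This was 1 of 10 members, where 0.245% of all tested probes were called higher, and none was called lower, where 0.00682% were, nor was any lower at an unadjusted p below 0.05. The levels of *Mmp13*, *Mmp9*, *Mmp3* and *Mmp10* with IL-1β all lay above all controls, in 4 of 10 members, where this held for 3.12% of all tested probes. The comparisons of TNFα, TGFß1, IL-1β and IL-6 with control share the same 3 control arrays, so their values are given side by side without a measure of likeness.

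*Mmp13* had -0.16, -0.85 and -0.36 on IL-1β arrays 5, 10 and 15, a rise of 2.60 ± 0.22 or 6.06-fold (q = 2.12e-04), and was called without any 1 array. *Mmp9* had -2.76, -2.43 and -2.19 (1.71 ± 0.36, q = 0.106), and its further probe gave 1.52 (q = 0.29). *Mmp3* had 5.41, 6.10 and 5.65 (1.51 ± 0.33, q = 0.127). In the blocked fit both were called, *Mmp9* with q = 0.00424 and *Mmp3* with q = 0.00364.

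*Mmp10* had -1.29, -1.57 and -0.80 with IL-1β, a difference of 1.41 ± 0.47 (q = 0.767). Without IL-6 array 8, *Mmp3* was called as well, with a q-value just under the threshold. The differences of the other 6 members lay between -0.24 (*Mmp19*) and -0.01 (*Mmp11*). The neutrophil marker sums given above reached their highest value with IL-1β, and their part in the *Mmp9* values was not tested.

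IL-6 with its soluble receptor called 0 of 10 members, where 0.0648% of all tested probes were called. By limma 0 members had an unadjusted p below 0.05, and the differences lay between -0.75 (*Mmp9*, 95% interval -1.53 to 0.03) and 0.45 (*Mmp13*, -0.02 to 0.92). For *Mmp3* the interval was -1.02 to 0.40. The count stayed at 0 in every alternative fit. *Socs3*, a known target of IL-6 signalling, rose by 2.39 ± 0.20 (q = 0.00116) on the same arrays.

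Set directly against each other, TNFα and TGFß1 differed in 4 members beside *Mmp8*, all higher with TNFα, where 6.81% of all tested probes were called higher and 5.02% lower. *Mmp3* differed most, by 6.72 ± 0.33 or 105-fold (q = 9.97e-08), since it lay above controls with 1 cytokine and below them with the other. *Mmp13* differed by 5.30 ± 0.22, *Mmp9* by 4.27 ± 0.36 and *Mmp10* by 3.86 ± 0.47. *Mmp8*, tested only because its TNFα arrays were well above background, was at least 1.91-fold higher with TNFα, where its levels were -4.54, -4.31 and -4.45 (q = 0.00546). With the normexp background correction the *Mmp8* difference was 0.25 (q = 0.243) and was not called. *Mmp19* (0.08, 95% interval -0.59 to 0.76) and *Mmp11* (0.04, -0.28 to 0.35) were not called.

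IL-1β and TNFα differed in 6 members, 4 lower and 2 higher with IL-1β, where 1.72% of all tested probes were lower and 3.11% higher. *Mmp10* (-3.31 ± 0.47), *Mmp13* (-3.24 ± 0.22), *Mmp9* (-2.60 ± 0.36) and *Mmp3* (-2.38 ± 0.33) were lower with IL-1β, with q-values of 5.4e-06 to 0.00145. *Mmp23* (1.36 ± 0.24, q = 0.00607) and *Mmp19* (1.43 ± 0.31, q = 0.0187) were higher with IL-1β. The *Mmp19* call was lost without TNFα 4, TNFα 14 or IL-1β 10. IL-1β also gave higher levels than IL-6 for *Mmp9* (2.46 ± 0.36, q = 0.00962), *Mmp13* (2.15 ± 0.22, q = 8.88e-04) and *Mmp3* (1.82 ± 0.33, q = 0.0358), where 0.259% of all tested probes were called higher. With the normexp background correction the *Mmp9* difference from IL-6 was 1.04 (q = 0.0187). In a fit of the IL-1β and IL-6 arrays alone neither *Mmp9* (q = 0.145) nor *Mmp13* (q = 0.114) was called. The *Mmp3* call in that comparison held in 4 of the 15 fits that left out 1 array.

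In the other pairs of cytokines, 7 of 10 members were called between IL-1β and TGFß1 (17% of all tested probes), 7 between IL-6 and TNFα, *Mmp8* included (8.68%), and 4 between IL-6 and TGFß1 (16.4%). The order of the 5 groups differed between the members. For *Mmp13* and the first probe of *Mmp9*, TNFα stood above IL-1β and IL-1β above TGFß1, each step called, while TGFß1, IL-6 and controls were not told apart by any step between neighbours. The further probe of *Mmp9* did not call IL-1β above TGFß1 (0.89 ± 0.39, q = 0.123) and called IL-6 below TGFß1 (-1.22 ± 0.39, q = 0.0406). For *Mmp3* the order was TNFα, IL-1β, control, IL-6 and TGFß1, with the first and the last step called. For *Mmp10* only the step from TNFα to IL-1β was called. For *Mmp19* and *Mmp23*, IL-6, controls and IL-1β formed the upper end and TNFα and TGFß1 the lower end, and only the step between these ends was called. No step between neighbours was called for *Mmp2*, *Mmp8*, *Mmp11* or *Mmp14*.

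Correlations of the members' levels over the 15 arrays are given as a description, since the arrays of a group share their treatment. Pearson's r was 0.95 between *Mmp13* and *Mmp9*, 0.94 between *Mmp13* and *Mmp10* and 0.84 between *Mmp13* and *Mmp3*. It was 0.88 between *Mmp19* and *Mmp23* and 0.84 between *Mmp11* and *Mmp23*, while *Mmp13* and *Mmp23* gave -0.66. *Mmp3* had 0.75 to 0.84 with *Mmp10*, *Mmp8*, *Mmp9* and *Mmp13*, and 0.02 with *Mmp19* and -0.25 with *Mmp23*. *Mmp14* had 0.16 at most, with *Mmp10*, and was lowest against *Mmp19*, with -0.64. *Mmp13* and *Mmp3* had the largest moderated F over the groups, 252 and 115. The named genes most like *Mmp13* were *Olfr1033* (r = 0.981), *Rnd1* (0.972) and *Wdr92* (0.971), and those most like *Mmp3* were *Ch25h* (0.986), *Ikbke* (0.986) and *Ubd* (0.983).

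Along chromosome 9 the RefSeq order of the cluster was *Mmp13*, *Mmp12*, *Mmp1b*, *Mmp3*, *Mmp1a*, *Mmp10*, *Mmp8*, *Mmp27*, *Mmp20* and *Mmp7*. Of these 10 genes 7 were tested, and *Mmp12*, *Mmp20* and *Mmp7* were not well above background on all arrays of any group. *Mmp8* and *Mmp27* were tested only because their 3 TNFα arrays were well above background. TNFα raised all of the other 5. *Mmp27* was also called and *Mmp8* was not. TGFß1 lowered 3 genes that stand next to each other, *Mmp1b*, *Mmp3* and *Mmp1a*, and raised none.

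*Mmp1b* had -1.38, -0.67 and -1.09 in controls, 0.93, 1.16 and 1.47 with TNFα (2.23 ± 0.34, q = 0.00109) and -3.36, -2.29 and -3.19 with TGFß1 (-1.90 ± 0.34, q = 0.00182). *Mmp1a* rose by 1.76 ± 0.48 with TNFα (q = 0.0304), a call lost without control 1, control 6, control 11, TNFα 4 or TNFα 14, and fell with TGFß1 by 3.00 ± 0.48 (q = 8.59e-04). It was well above background on 1 of the 3 TGFß1 arrays (-4.90, -5.73 and -7.24), and the difference was as small as -0.79 in other fits, though called in all that tested it. These genes are rodent copies of interstitial collagenase and closely alike in sequence, so their signals may be shared, which was not tested. *Mmp27* differed by 2.70 ± 0.78 with TNFα (q = 0.0383), with controls at -7.77, -4.09 and -5.08, and its call held in 5 of the 15 fits that left out 1 array. The promoter windows of *Mmp1a* and *Mmp1b* held the AP-1 site and the TATA box, and that of *Mmp27* held neither.

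**Figure D3:**
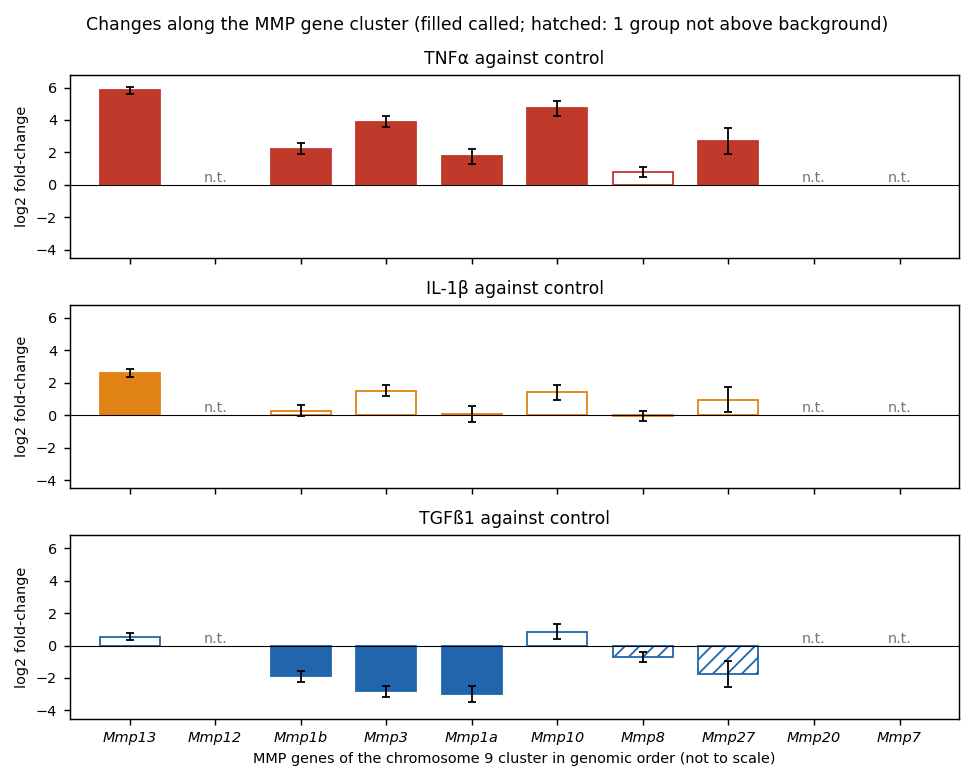
Log2 fold-change against control for the MMP genes of the chromosome 9 cluster, in genomic order and not to scale, with TNFα above, IL-1β in the middle and TGFß1 below. Bars show estimates with the SE, filled bars were called, hatched bars had 1 group not above background on any array, and n.t. marks genes not tested. TNFα raised 6 of the 7 tested genes, among them *Mmp27*, which was tested only through its TNFα arrays, and TGFß1 lowered *Mmp1b*, *Mmp3* and *Mmp1a*.

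Of the 13 further MMP genes outside the 10 members, 5 were tested: *Mmp1a*, *Mmp1b*, *Mmp17*, *Mmp27* and *Mmp28*. TNFα raised 3, with *Mmp27* among them, TGFß1 lowered 2, and IL-1β and IL-6 called none. *Mmp17* (0.03 with TNFα, 0.43 with TGFß1) and *Mmp28* (0.02 and 0.01) were not called with either.

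The inhibitors of MMPs moved as well. Of 7 listed genes 6 were tested, and TNFα lowered 2 and raised none, while TGFß1 lowered 3 and raised 2, with *Tfpi2* among them. *Timp3*, the inhibitor that stays bound to the matrix, had 0.57, 0.33 and 0.50 in controls, -3.18, -2.45 and -3.26 with TNFα (-3.43 ± 0.29, q = 1.43e-05) and -3.03, -2.32 and -3.38 with TGFß1 (-3.38 ± 0.29, q = 1.16e-05). *Reck*, a membrane-anchored inhibitor, fell by 1.31 ± 0.26 with TNFα (q = 0.006) and by 1.38 ± 0.26 with TGFß1 (q = 0.00249). The direct difference between TNFα and TGFß1 was -0.05 ± 0.29 for *Timp3* (q = 0.95) and 0.07 ± 0.26 for *Reck* (q = 0.923).

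*Timp2*, which holds pro-*Mmp2* to *Mmp14*, fell by 0.89 ± 0.12 with TGFß1 (q = 2.88e-04). *Tfpi2*, an inhibitor of plasmin and MMPs, was tested only because its 3 TGFß1 arrays were well above background. It was at least 8.68-fold higher with TGFß1 in this fit (q = 2.93e-04) and was not well above background on any control array. Its log2 difference was as small as 1.33 in other fits, though called in all that tested it. *Timp1* rose by 0.95 ± 0.27 with TGFß1 (q = 0.0229), a call lost without control 6 or without any 1 of the TGFß1 arrays. IL-1β and IL-6 called none of the 6.

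**Figure D4:**
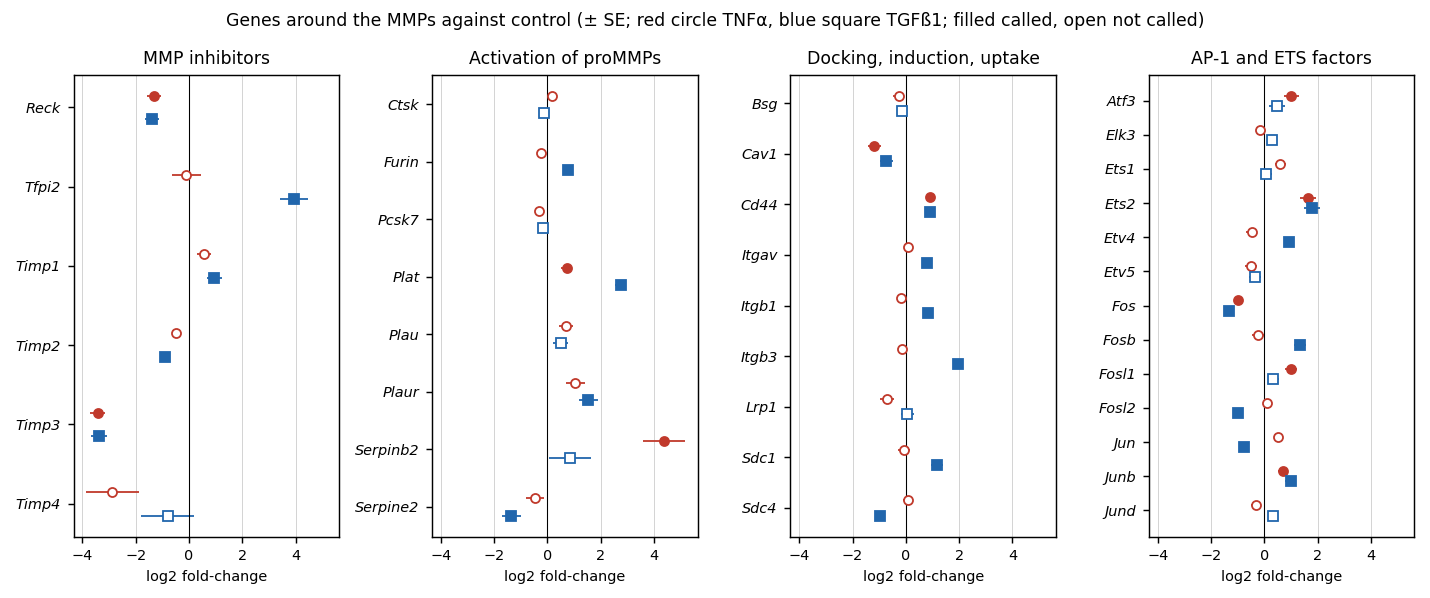
Log2 fold-change against control (± SE) for the tested genes of 4 lists around the MMPs: inhibitors, activation of proMMPs, docking and uptake, and AP-1 and ETS factors. Red circles are TNFα, blue squares TGFß1, filled symbols called and open symbols not called. *Timp3* and *Reck* lie to the left for both cytokines, while *Plat* and *Itgb3* lie furthest to the right for TGFß1 in their panels apart from *Serpinb2* with TNFα. *Tfpi2* was not above background in controls, so its TGFß1 point is a fitted value and not a measured fold. *Tfpi2* was tested only through its TGFß1 arrays and *Serpinb2* only through its TNFα arrays.

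Plasmin opens several secreted proMMPs, and furin-type proteases open *Mmp11*, *Mmp14* and *Mmp23*. Of 12 genes of this list 8 were tested. TGFß1 raised 3, *Plat* (tissue plasminogen activator, 2.75 ± 0.20), *Plaur* (the urokinase receptor, 1.53 ± 0.36) and *Furin* (0.76 ± 0.13), with q-values of 2.87e-06 to 0.00892, and lowered *Serpine2* (-1.35 ± 0.34, q = 0.0122). TNFα raised 2, *Serpinb2* (an inhibitor of urokinase, 4.39 ± 0.79, q = 0.00315) and *Plat* (0.72 ± 0.20, q = 0.031). *Serpinb2* was tested only because its 3 TNFα arrays were well above background. Of its 3 controls 1 was so, and its difference was as small as 1.81 in other fits, though called in all that tested it. The TNFα call of *Plat* was lost without any 1 of the 3 controls or of the 3 TNFα arrays.

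Of 9 genes that bind or take up MMPs at the cell surface, all were tested. TGFß1 raised 5 of them. *Itgb3*, a subunit of the integrin that binds *Mmp2*, rose by 1.95 ± 0.13 (q = 2.34e-06), *Sdc1* by 1.17 ± 0.22 (q = 0.00255), *Itgb1* by 0.82 ± 0.10 and *Itgav* by 0.78 ± 0.11. TGFß1 lowered *Sdc4* (-0.96 ± 0.18, q = 0.0027) and *Cav1* (-0.74 ± 0.25, q = 0.0493), the latter call holding in 3 of the 15 fits that left out 1 array. TNFα raised *Cd44* (0.90 ± 0.15, q = 0.00205), the hyaluronan receptor that binds *Mmp9* and *Mmp14*, and lowered *Cav1* (-1.19 ± 0.25, q = 0.0087). *Cd44*, the fifth gene, also rose with TGFß1, by 0.89 ± 0.15 (q = 0.00128).

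Of 13 genes for AP-1 and ETS factors, which read the motifs named above, TNFα raised 4 and lowered 1, and TGFß1 raised 4 and lowered 3. *Ets2* rose with both, by 1.64 ± 0.30 (q = 0.00335) and by 1.78 ± 0.30 (q = 0.00111), and *Fos* fell with both, by 0.98 ± 0.15 (q = 0.00135) and by 1.31 ± 0.15 (q = 1.16e-04). *Fosl1* rose with TNFα (0.99 ± 0.22, q = 0.0117), as did *Atf3* (1.02 ± 0.30, q = 0.0451) and *Junb* (0.70 ± 0.20, q = 0.0354). Of the 15 fits that left out 1 array, the *Atf3* call held in 3 and this *Junb* call in 11. With TGFß1, *Fosb* (1.35 ± 0.23), *Junb* (0.99 ± 0.20) and *Etv4* (0.91 ± 0.19) rose, with q-values of 0.00134 to 0.00496, and *Fosl2* (-0.99 ± 0.12, q = 1.42e-04) and *Jun* (-0.76 ± 0.18, q = 0.00997) fell. In other fits the number raised by TNFα ranged from 1 to 6. IL-1β and IL-6 called none of the 13.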

How the data were processed

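RNA of 15 cultures was labelled with Cyanine 3 by the authors, hybridized to 1-color mouse arrays and extracted with Agilent Feature Extraction 10.7.3.1, per the labels and file headers. The deposited values are intensities, one processed signal per spot, from which the software had taken background and spatial trends, and arrays were not normalized to each other. The table of the whole series held the same signals (largest difference 0). The study's methods name limma and the q-value threshold used here, and its results the fold-change.

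Of 62976 spots per array, 59305 were not controls. Spots marked as non-uniform or population outliers were left out, and no spot was saturated. Log2 signals of the same probe were averaged, and each array was scaled by subtracting its 75th percentile over spots (508 to 683 before taking logs). A probe counted as well above background if a share of 0.5 or more of its spots were marked so by the software, and 48.3% to 54.9% of the probes on an array did. Precision is limited by the number of arrays. Names came from RefSeq identifiers (33767 of 56605 probes matched), and the probe with the highest mean signal stood for a gene. Probe positions are not given, since the array was designed on another assembly, and the coordinates and gene order are those of the RefSeq tables.

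Group means were fitted over all 15 arrays with limma 3.58.1 in R 4.3.3, two-sided, with Benjamini-Hochberg adjustment over 29334 probes. The script was tested on simulated arrays. For a group whose arrays were all near background a fold-change is a bound, taken against the higher of the probe's value and the dimmest value well above background on each array. Intervals are 95% intervals of the fit.

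The members and gene lists were chosen with earlier results of these data known. A gene of 2 of the lists is not reported here and was left out of their counts. The text names all members and, from each list, up to 3 called genes with the largest change and some further genes. It also names the 3 genes most correlated with each of the 2 members of largest F. Alternatives were normexp with offset 50 (on the median spot signal, since the files hold no mean signal), quantile or median scaling, other filters, the slide, the blocked fit, 2-group fits, other thresholds and leaving out each array. The blocked fit pairs arrays by label number as a hint from the data: with group means and slide removed, arrays of the same run correlated with r of 0.114 to 0.671 in all 30 pairs, while 2 of 60 pairs of different runs had r above 0.1. Without removing the slide, 12 of 30 and 28 of 60 pairs did.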

Additional observations from a re-analysis of the deposited data

How the results depend on the processing

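No value of a member changed direction while called: of 2494 alternative values over 10 members and 10 comparisons, 2414 kept their side of the threshold, 55 lost a call and 25 gained one. The number of members called in the comparison of IL-1β with control rose from 1 to 3 in the fit with the replicate block and the slide, and was 1 to 2 when 1 array was left out, with 2 only without IL-6 8. With a fold-change of at least 2, the number called with TGFß1 was 2 in place of 4, and it was 3 to 5 when 1 array was left out. With probes well above background on all 15 arrays, TNFα and TGFß1 differed in 3 members in place of 5 (*Mmp8* included), since *Mmp8* and *Mmp9* were then not tested. Against control, the fit with the replicate block and the slide also called *Mmp2* with TNFα, and changed the TGFß1 calls of *Mmp11* and *Mmp14* as the slide alone did. Between cytokines it added *Mmp2* for TNFα against IL-1β and against IL-6 and *Mmp9* for IL-6 against TGFß1, and lost *Mmp11* for IL-1β against TGFß1, as the slide alone did. Over all probes, the calls with block and slide (slide alone) were 4513 (3504) in place of 2986 with TNFα, 320 (105) in place of 74 with IL-1β, 228 (37) in place of 19 with IL-6, and 3073 (1823) in place of 1416 for IL-1β against TNFα. Low signals limit *Mmp8* throughout, *Mmp9* in controls and IL-6, *Mmp1a* with TGFß1, *Serpinb2* and *Mrc1* in controls, and *Mmp27*. They also limit *Icam1* with TGFß1, and *Krt8* and *Tfpi2* in controls.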

Other observations

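The genes that the MMPs act on moved unequally. Of 19 matrix proteins cut by MMPs, 16 were tested, and TNFα lowered 7 and raised 2 while TGFß1 lowered 5 and raised 3. *Col3a1*, a fibrillar collagen, fell by 2.17 ± 0.44 with TNFα (q = 0.00661), and *Col4a1*, a basement membrane collagen, by 1.77 ± 0.30 (q = 0.00233). *Tnc*, the matricellular protein tenascin-C, rose with both, by 2.57 ± 0.27 with TNFα (q = 7.55e-05) and by 3.20 ± 0.27 with TGFß1 (q = 1.09e-05). The proteoglycan *Dcn* rose by 1.91 ± 0.42 with TNFα (q = 0.0102) and fell by 1.82 ± 0.42 with TGFß1 (q = 0.0079), as *Mmp3* did in direction. *Col5a1* differed by -1.22 ± 0.26 with TNFα (q = 0.00929) and by 0.79 ± 0.26 with TGFß1 (q = 0.045), and *Fn1* by 0.79 ± 0.23 with TGFß1 (q = 0.0236). Of the 15 fits that left out 1 array, the TGFß1 call of *Col5a1* held in 5 and that of *Fn1* in 12. IL-1β raised 1, *Nid1* (0.70 ± 0.10, q = 0.0115). This call was lost with median scaling, in the 2-group fit and without control 1, control 11 or IL-1β 10. In other fits the numbers lowered by TNFα ranged from 5 to 8 and those raised by TGFß1 from 1 to 4.

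Of 8 cytokine response genes, IL-1β raised 4, and TNFα raised 4. *Icam1*, an adhesion molecule for leukocytes, rose by 5.92 ± 0.25 with TNFα (q = 4.13e-08) and by 1.91 ± 0.25 with IL-1β (q = 0.00489), and *Tnfaip3*, an inhibitor of NF-kB signalling, by 3.84 ± 0.12 (q = 8.65e-09) and by 1.34 ± 0.12 (q = 3.48e-04). With TGFß1, 5 of the 8 fell and 2 rose. *Icam1* was at least 3.13-fold lower in this fit (q = 1.38e-04). With the normexp background correction it was not called, and its log2 difference was as small as -0.5 in other fits. *Ccl2*, a chemokine for monocytes, fell by 2.00 ± 0.24 (q = 1.23e-04). *Ccn2*, a matricellular target of TGFß1, rose by 3.06 ± 0.39 (q = 1.9e-04), as did the pathway inhibitor *Smad7*, by 2.00 ± 0.48 (q = 0.00942).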
